A study of Arabidopsis thaliana with 18 samples.

Results

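The genes described here encode 2 families of enzymes of sucrose metabolism in Arabidopsis thaliana. They are 6 sucrose synthase genes (SUS1 to SUS6) and 4 sucrose phosphate synthase genes (SPS1F, SPS2F, SPS3F and SPS4F). They were taken by locus identifier from a table of 33557 genes, and all 10 were present. RNA sequencing of aerial tissue compared 2 natural accessions of the species, an ecotype from Italy (IT) and an ecotype from Sweden (SW). Plants of the IT warm and SW warm groups grew on soil at 22 °C in a 12 h photoperiod under 100 to 120 µmol m-2 s-1 of light for 18 days. The IT 1-week-cold and SW 1-week-cold groups then spent 1 week at 4 °C, and the IT 2-week-cold and SW 2-week-cold groups spent 2 weeks there, under about 35 µmol m-2 s-1 of light. Every plant was sampled at ZT4, 4 h after lights on. Cold, dimmer light and greater age therefore cannot be told apart in a comparison of cold with warm plants, and each ecotype is 1 accession.

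Each of the 6 groups had 3 libraries, but the table holds 1 combined value per gene and group, in FPKM (fragments relative to transcript length and to sequencing depth). No spread between plants, error or p-value can be given, and the depth behind the values is unknown. Differences are given as log2 ratios of FPKM + 1, and 2-fold or more (a log2 ratio of 1 or more in size) was the limit used for counting. Genes that reached 1 FPKM in at least 1 group (19639 genes) served as background. Of the 10 members 9 reached it, and SPS3F, at 0.913 FPKM at most, did not. SUS2 was below 1 FPKM in both warm groups and passed through its cold values. No member was listed at 0, although 471 genes that reached 1 FPKM in 1 group were at 0 in another. Leaf marker genes were high, with the carbonic anhydrase gene CA1 at 643 to 2406 FPKM and LHCB2.1 at 1309 to 2303, while RBCS1A and CAB3 were listed at 0 in all 6 groups and RCA in both warm groups. CA1 was lower in the cold, with log2 ratios of -1.18 and -0.94 in IT and -1.70 and -1.51 in SW. The 5 root markers summed to 46.9 FPKM in IT warm and 16.4 and 7.87 in the cold, and in SW to 37.8, 15.4 and 7.83. PYK10 made up most of the sum in the warm and after 1 week of cold. After 2 weeks PYK10 was at 1.76 FPKM in IT and 1.22 in SW, and PHO1, at 4.92 and 4.81, made up most of it. The part of these markers in the results was not tested. The 5 seed markers summed to at most 0.154 FPKM in any group. In bulk tissue, fewer cells of a type and less RNA per cell cannot be told apart.

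Sucrose phosphate synthase joins UDP-glucose and fructose phosphate to sucrose phosphate in the cytosol, and a phosphatase then releases sucrose, the sugar that leaves export through the phloem. Sucrose synthase runs the reversible reaction of sucrose with UDP to fructose and UDP-glucose, and is best known for breaking sucrose down in sink tissues, in phloem and under low oxygen. In cold-acclimating Arabidopsis leaves sucrose accumulates, and it is counted among the solutes that protect membranes during freezing.

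SUS1 (AT5G20830) is the sucrose synthase gene known to respond to low oxygen and osmotic stress, together with its close relative SUS4. It lay on chromosome 5 at 7050217 to 7055398 on the minus strand in the TAIR10.1 assembly, with 14 exons of which 13 hold coding sequence. SUS4 (AT3G43190) lay on chromosome 3 at 15179010 to 15184105, also on the minus strand, with 12 coding exons. SPS1F (AT5G20280), known as a main leaf isoform of sucrose phosphate synthase, lay on chromosome 5 at 6844712 to 6850237 on the minus strand. SPS2F (AT5G11110), its closest relative, lay on the plus strand of the same chromosome at 3536189 to 3541149.

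The 250 bases before the annotated start of these 4 genes are shown because they stand for the contrasts in the values: SUS1 and SPS2F were at least 2-fold higher in the cold in both ecotypes, SPS1F in SW after 2 weeks, and SUS4 in none of the 4 comparisons. Capitals mark matches, on either strand, to any of 4 motifs: CCGAC (the core of the CRT/DRE element bound by CBF factors), ACGTG (the core of the abscisic acid response element), AAAATATCT (the evening element) and TGGTTT (the GT motif described in anaerobic genes).
SUS1 chr5:7055399-7055648, minus strand: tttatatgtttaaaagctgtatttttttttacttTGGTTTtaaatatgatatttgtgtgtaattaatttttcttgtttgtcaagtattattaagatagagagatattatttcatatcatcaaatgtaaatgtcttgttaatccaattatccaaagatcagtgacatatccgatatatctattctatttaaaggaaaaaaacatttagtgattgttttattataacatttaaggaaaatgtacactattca
SUS4 chr3:15184106-15184355, minus strand: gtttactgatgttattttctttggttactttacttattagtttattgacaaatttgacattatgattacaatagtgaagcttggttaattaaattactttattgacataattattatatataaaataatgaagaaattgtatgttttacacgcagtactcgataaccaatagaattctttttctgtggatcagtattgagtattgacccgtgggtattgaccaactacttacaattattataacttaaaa
SPS1F chr5:6850238-6850487, minus strand: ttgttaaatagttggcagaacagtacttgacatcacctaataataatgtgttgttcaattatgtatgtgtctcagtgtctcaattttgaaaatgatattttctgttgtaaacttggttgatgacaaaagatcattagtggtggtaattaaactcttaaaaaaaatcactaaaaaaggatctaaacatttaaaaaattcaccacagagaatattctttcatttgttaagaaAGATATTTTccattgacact
SPS2F chr5:3535939-3536188, plus strand: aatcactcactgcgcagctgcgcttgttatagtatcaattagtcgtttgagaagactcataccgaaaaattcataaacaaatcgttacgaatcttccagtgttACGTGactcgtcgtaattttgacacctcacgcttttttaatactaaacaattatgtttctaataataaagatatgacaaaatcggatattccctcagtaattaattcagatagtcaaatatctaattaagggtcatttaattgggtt

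None of the 10 windows held CCGAC, which occurred in 12.0% of the windows of the same length before 27443 protein-coding genes. ACGTG was found before SUS3, SPS2F and SPS3F (22.9% of all windows), once before SUS3 and SPS2F, and in SPS3F at 4 places of which 2 overlap. The evening element matched before SPS1F alone, 20 to 12 bases from its start, and occurred in 2.36% of all windows. TGGTTT matched before SUS1, 216 to 211 bases from its start, and before SUS2 (27.3% of all windows). SUS4, SUS5, SUS6 and SPS4F held none of the 4 motifs in this stretch.

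SUS1 and SUS4 are the most alike pair of either family, with 84.3% identity over 2427 aligned coding bases. No other pair exceeded 70.7% (SUS2 and SUS3), and SPS1F and SPS2F shared 69.0%. The stretch around their longest identical run, coding bases 841 to 960 counted from the start codon, is shown because a read must span one of its differing bases to be assigned to 1 of the 2 genes; capitals mark the 8 bases at which they differ.
SUS1: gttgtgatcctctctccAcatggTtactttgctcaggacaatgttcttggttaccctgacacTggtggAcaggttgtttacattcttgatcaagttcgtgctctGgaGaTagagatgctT
SUS4: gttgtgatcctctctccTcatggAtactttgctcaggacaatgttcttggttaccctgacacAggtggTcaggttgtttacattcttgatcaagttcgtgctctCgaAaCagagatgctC

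The longest run of identical bases was 38, and none of the 50-base stretches of the SUS1 transcript occurred in the SUS4 transcript. Read length and the treatment of reads with several matches were not given in the sources used here.

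**Figure D1:**
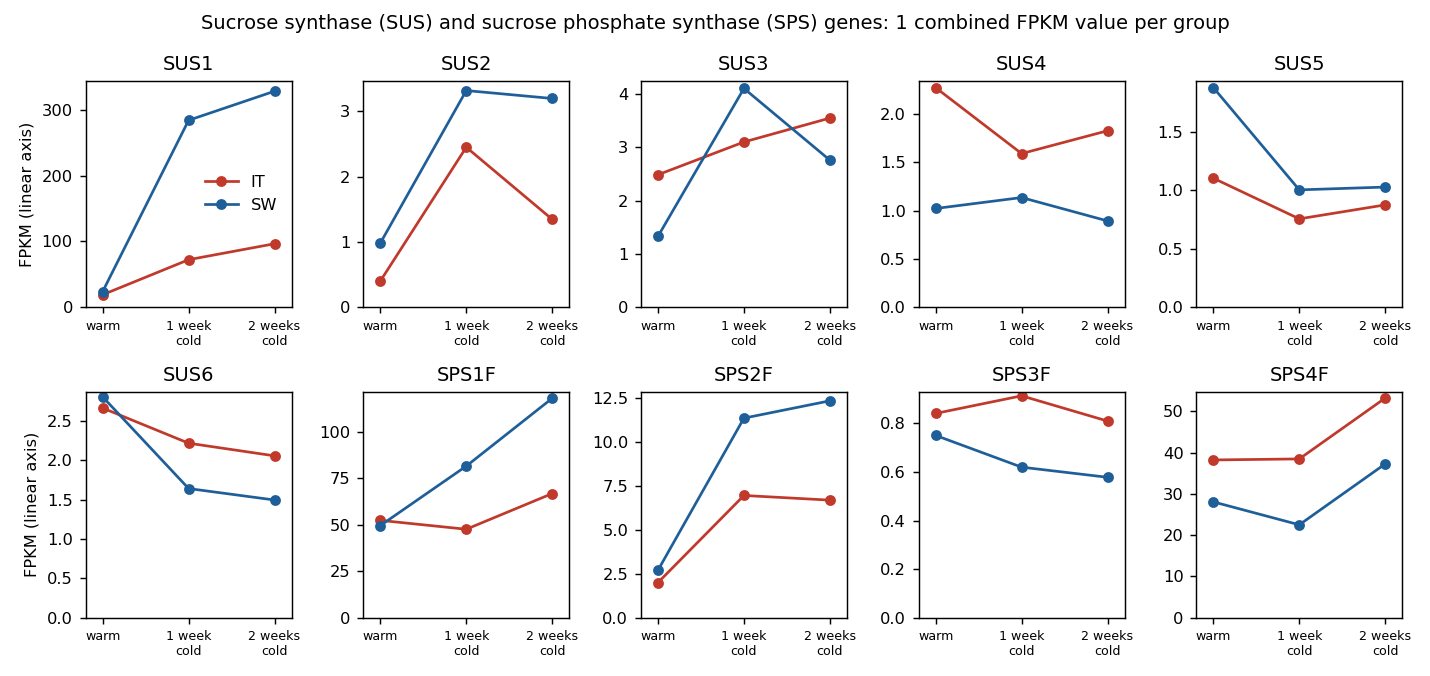
FPKM (linear axis from 0, a separate scale for each gene) of the 10 genes in the warm and after 1 and 2 weeks of cold; red points are IT and blue points SW, each 1 combined value of 3 libraries, so there are no error bars. SUS1 in SW goes from 23.6 FPKM in the warm to 329 after 2 weeks, SUS4, SUS5, SUS6 and SPS3F stay below 3 FPKM throughout, and SPS4F is higher in IT than in SW at each time.

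SUS1 was the sucrose synthase gene with by far the highest level in every group. In IT it stood at 18.8 FPKM in the warm, 72.2 after 1 week of cold and 96.5 after 2 weeks. In SW it stood at 23.6 FPKM in the warm, 285 after 1 week and 329 after 2 weeks. Both warm groups were thus the lowest, and both SW cold groups lay above every IT group. The cold level was 3.84 times the warm level in IT at 1 week and 5.14 times at 2 weeks, against 12.0 and 13.9 times in SW. On the log2(FPKM + 1) scale these ratios were 1.89, 2.30, 3.54 and 3.74. In SW after 1 week only 82 of 19347 genes had a larger ratio, and after 2 weeks 67 of 19328; in IT 405 of 19362 genes did so after 1 week and 154 of 19382 after 2 weeks. The values at 1 and 2 weeks of an ecotype share its warm group.

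The difference between the ecotypes lay in the cold values. In the warm SUS1 differed little (log2 ratio of SW to IT 0.32). After 1 week of cold SW had 3.95 times the IT level and after 2 weeks 3.41 times. The SW response exceeded the IT response by 1.65 on the log2 scale at 1 week, and 277 of 19218 genes had a larger difference. At 2 weeks it exceeded it by 1.44. Under 4 other scalings of the groups both differences stayed past 2-fold, the lowest being 1.175.

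SUS4, the closest relative of SUS1, showed no such pattern. In IT it was at 2.27 FPKM in the warm, 1.59 after 1 week of cold and 1.83 after 2 weeks. In SW it was at 1.02 FPKM in the warm, 1.14 after 1 week and 0.893 after 2 weeks. All 3 SW values lay below all 3 IT values, and no comparison of cold with warm reached 2-fold (log2 ratios -0.34 to 0.08). SW stood below IT by a log2 ratio of -0.70 in the warm, -0.28 after 1 week and -0.58 after 2 weeks. The warm ratio was -1.08 with 0.1 FPKM added in place of 1.

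SUS2 and SUS3 are known chiefly from seeds, where they act during embryo filling. SUS2 (AT5G49190) was at 0.399 FPKM in IT warm, 2.45 after 1 week and 1.34 after 2 weeks, and in SW at 0.981, 3.32 and 3.20. Each cold value was above both warm values, although all 6 were low. The log2 ratio of cold to warm was 1.30 in IT at 1 week, 0.75 in IT at 2 weeks, 1.12 in SW at 1 week and 1.08 in SW at 2 weeks. The IT value at 2 weeks was 3.37 times the warm value without the added 1 FPKM, and its log2 ratio was 1.53 with 0.1 FPKM and 1.297 with 0.25 FPKM added. Scaled by reference genes, the SW ratios were 0.70 and 0.63, and with equal sums the SW ratio at 2 weeks was 0.95. SUS3 (AT4G02280) was at 2.49 FPKM in IT warm, 3.10 after 1 week and 3.55 after 2 weeks, and in SW at 1.33, 4.11 and 2.76. Its SW ratio was 1.13 at 1 week (0.67 by reference genes) and 0.69 at 2 weeks, against 0.23 and 0.38 in IT. Reference-gene scaling turned both IT ratios to just below 0. Without the added 1 FPKM the SW value of SUS3 at 2 weeks was 2.08 times its warm value.

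SUS5 and SUS6 carry a C-terminal extension and are known from phloem sieve elements, where they take part in callose formation. SUS5 (AT5G37180) was at 1.10 FPKM in IT warm, 0.754 after 1 week and 0.873 after 2 weeks, and in SW at 1.88, 1.00 and 1.03. SUS6 (AT1G73370) was at 2.66, 2.22 and 2.06 FPKM in IT and at 2.80, 1.64 and 1.49 in SW. For both genes the warm value was the highest of its ecotype, within 2-fold of the cold values. The log2 ratios in SW were -0.52 and -0.51 for SUS5 and -0.53 and -0.61 for SUS6; in IT they lay between -0.26 and -0.17. Under reference-gene scaling the SUS6 ratios in SW were -1.02 and -1.11. Of 6 phloem markers 5 reached 1 FPKM and all 5 were within 2-fold of the warm level in each of the 4 comparisons, and the 6 together summed to 152 to 240 FPKM per group. SEOR1, a sieve element protein gene, was at 14.7 FPKM in IT warm and 9.25 and 8.03 in the cold, and in SW at 17.0, 8.54 and 8.94. The callose synthase gene CALS7 was at 0.788 to 1.05 FPKM over the 6 groups. SUC2 and PP2-A1, the most abundant of the list, had log2 ratios of 0.19 and 0.08 in IT at 1 week and 0.39 and 0.42 in SW at 1 week. At 2 weeks they had -0.18 and -0.70 in IT and 0.05 and -0.36 in SW. By reference genes SEOR1 was 2-fold lower in all 4 comparisons and PP2-A1 in both at 2 weeks. Whether the share of phloem bears on SUS5 and SUS6 was not tested.

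SPS1F was the most abundant sucrose phosphate synthase gene in every group. It was at 52.3 FPKM in IT warm, 47.6 after 1 week of cold and 66.8 after 2 weeks, and in SW at 49.5, 81.5 and 118. Both SW cold values were higher than all IT values, while the warm values were close (log2 ratio of SW to IT -0.08). The ratio of cold to warm was -0.14 and 0.35 in IT and 0.71 and 1.23 in SW. The SW response exceeded the IT response by 0.84 at 1 week and by 0.89 at 2 weeks, below the 2-fold limit. Scaled by reference genes the SW ratios were 0.02 and 0.52, and the IT ratio at 2 weeks was -0.23.

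SPS4F (AT4G10120), the other main leaf isoform, was at 38.2 FPKM in IT warm, 38.5 after 1 week and 53.2 after 2 weeks, and in SW at 28.1, 22.5 and 37.2. SW lay below IT at each time, by a log2 ratio of -0.43 in the warm, -0.75 after 1 week and -0.50 after 2 weeks. Cold values were within 2-fold of warm values in both ecotypes (-0.31 to 0.47). The direction at 2 weeks depended on the scaling, with -0.10 in IT and -0.31 in SW by reference genes. SPS4F overlaps the neighbouring gene AT4G10130, on the opposite strand, by 167 bases. That gene was at 3.43 to 7.76 FPKM, and whether counting used the strand was not given in the sources used here.

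SPS2F was low in the warm and higher in the cold in both ecotypes. It was at 2.01 FPKM in IT warm, 6.97 after 1 week and 6.70 after 2 weeks, and in SW at 2.71, 11.4 and 12.4. All 4 cold values lay above both warm values. The log2 ratio was 1.41 and 1.36 in IT and 1.74 and 1.85 in SW; under reference-gene scaling the IT value at 2 weeks was 0.92 and the other 3 stayed above 1. The SW response exceeded the IT response by 0.33 at 1 week and 0.49 at 2 weeks. SPS3F (AT1G04920) was at 0.841, 0.913 and 0.809 FPKM in IT and at 0.750, 0.620 and 0.578 in SW, and its largest and smallest values differed 1.58-fold.

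**Figure D2:**
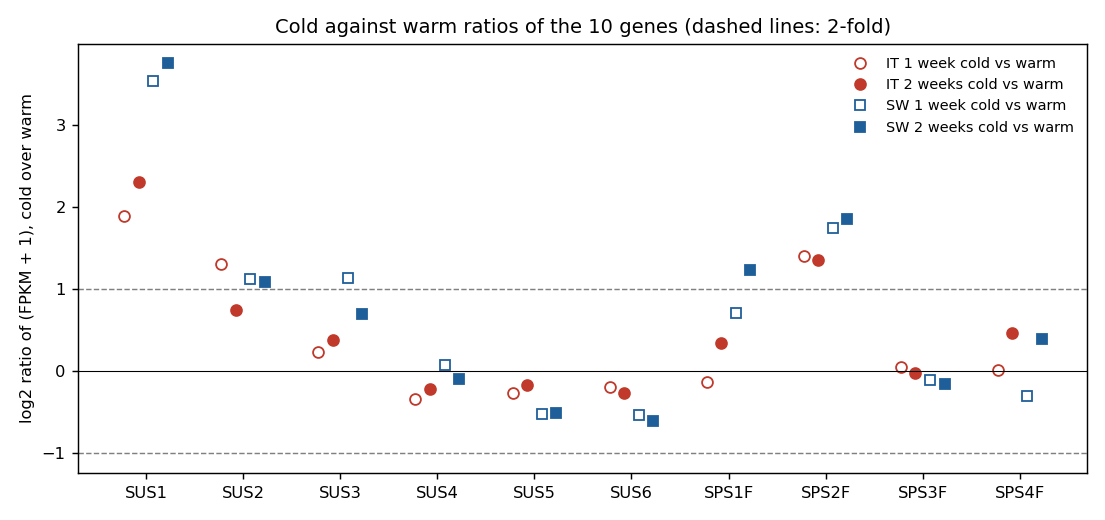
Log2 ratio of (FPKM + 1), cold over warm, for each of the 10 genes in the 4 comparisons (circles IT, squares SW, open 1 week, filled 2 weeks); dashed lines mark 2-fold. SUS1 lies above the upper line in all 4 comparisons with the SW squares at 3.54 and 3.74, SPS2F is also above it in all 4, and no gene reaches the lower line.

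Of the 9 members with a ratio, 3 differed at least 2-fold between 1 week of cold and warm in IT (SUS1, SUS2 and SPS2F), beside 17.9% of all genes in either direction. At 2 weeks in IT 2 members did (SUS1 and SPS2F), beside 13.5% of all genes. In SW 4 did at 1 week (SUS1, SUS2, SUS3 and SPS2F) beside 14.0% of all genes, and 4 at 2 weeks (SUS1, SUS2, SPS1F and SPS2F) beside 14.0%. All of these members were higher in the cold, and none was at least 2-fold lower. SUS2, at 0.399 FPKM in IT warm and 0.981 in SW warm, passed the filter through its cold values. With 1 FPKM added, SUS2 could not have been counted as 2-fold lower in either ecotype. SUS4 in SW (1.02 FPKM in the warm) and SUS5 in IT (1.10 FPKM) could have been only at cold values near 0. The median ratio of the 9 members was 0.01 and 0.38 in IT and 0.71 and 0.69 in SW, beside medians of all genes between -0.0023 and 0.04. Between the first and the second week of cold no member differed 2-fold in IT (3.29% of all genes did in either direction) or in SW (3.29%). Of the ratios of 2 weeks to 1 week, those of SUS1 (0.41 in IT and 0.21 in SW), SPS1F (0.48 and 0.53) and SPS4F (0.46 and 0.70) were positive in both ecotypes under each of the 4 other scalings too.

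Between the ecotypes in the warm no member differed 2-fold, beside 6.90% of all genes. After 1 week of cold SUS1 alone was at least 2-fold higher in SW (4.57% of all genes were), and after 2 weeks again SUS1 alone (3.92%). These counts depend on the added 1 FPKM. Without it SUS2 in SW was at 2.46 times the IT level in the warm and 2.38 times after 2 weeks. SUS4 in SW was then at 0.449 and 0.488 times the IT level. SUS1 was also the single member whose response in SW exceeded that in IT by 1 or more on the log2 scale, at 1 week (4.89% of all genes) and at 2 weeks (3.07%). Scaling by 12 reference genes, which shifted the median over all genes more than the other 3 scalings in these 4 comparisons, put the median over all genes lower by 0.37 (IT, 1 week), 0.49 (IT, 2 weeks), 0.59 (SW, 1 week) and 0.61 (SW, 2 weeks) for cold against warm. The SUS1 ratios under it were 1.46, 1.74, 2.86 and 3.03. Of the 12 reference genes GAPC1 and EF1A were themselves at least 2-fold higher in IT after 1 week.

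Ratios between genes within a group do not depend on a scaling by 1 factor per group, as 3 of the 4 scalings are; quantile normalization is not of that kind. The SUS transcripts summed to 27.7 FPKM in IT warm, 82.3 after 1 week and 106 after 2 weeks, and in SW to 31.6, 296 and 338. The SPS transcripts summed to 93.4, 93.9 and 127 FPKM in IT and to 81.1, 116 and 168 in SW. The SUS sum was therefore 0.297 times the SPS sum in IT warm and 0.390 times in SW warm, but 0.876 and 0.833 times in cold IT and 2.55 and 2.01 times in cold SW. In both cold SW groups the SUS genes had the higher summed transcript level, and in the other 4 groups the SPS genes did. Genes of the invertases, which also split sucrose, are in neither sum.

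The difference in the SUS sum between warm and cold lay in SUS1. Without SUS1 the other 5 genes summed to 8.92, 10.1 and 9.65 FPKM in IT and to 8.01, 11.2 and 9.37 in SW. SUS1 made up 67.8% of the SUS sum in IT warm, 87.7% after 1 week and 90.9% after 2 weeks, and in SW 74.7%, 96.2% and 97.2%. The make-up of the SPS sum differed by ecotype. SPS4F held 40.9% of it in IT warm, 41.0% after 1 week and 41.7% after 2 weeks, and in SW 34.6%, 19.4% and 22.1%. SPS2F held 2.15%, 7.42% and 5.26% in IT and 3.35%, 9.80% and 7.35% in SW. The level of SPS1F was 1.24 to 1.37 times that of SPS4F in the IT groups, 1.77 times in SW warm and 3.62 and 3.17 times in cold SW.

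**Figure D3:**
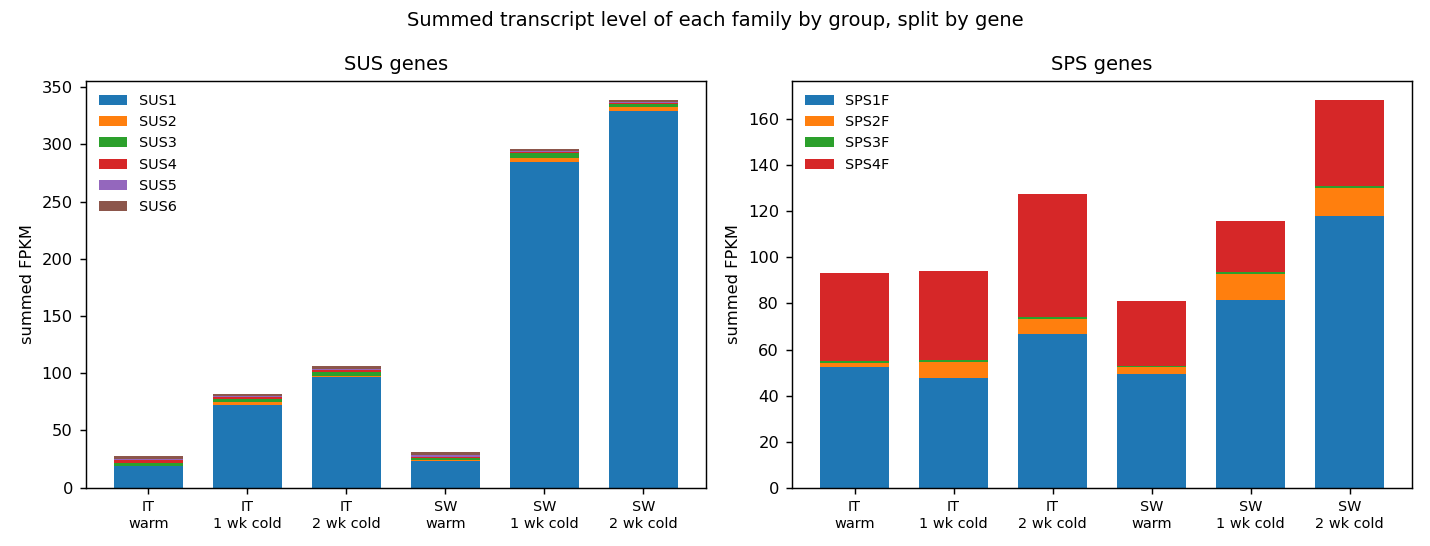
Summed FPKM of the 6 SUS genes (left) and the 4 SPS genes (right) in the 6 groups, stacked by gene on axes from 0. SUS1 fills most of every SUS bar and the SW cold bars reach 296 and 338 FPKM, whereas the SPS bars lie between 81.1 and 168 FPKM.

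SUS1 is one of the genes known to be induced by low oxygen, so 8 genes of that response were set beside it. The alcohol dehydrogenase gene ADH1 was at 6.35 FPKM in IT warm and 126 and 88.9 in the cold, and in SW at 5.78, 347 and 326. The pyruvate decarboxylase gene PDC1 (AT4G33070) was at 0.377 FPKM in IT warm, 6.41 after 1 week and 6.48 after 2 weeks, and in SW at 1.33, 35.1 and 33.9. As with SUS1, both genes of ethanol fermentation had their highest values in the 2 cold SW groups. In SW after 1 week these 2 of 8 genes were at least 2-fold higher, 1 (SAD6) was lower and 5 were within 2-fold (median log2 ratio 0.18). In IT the counts were the same (median -0.10), but the lower gene was LBD41. After 2 weeks 2 were higher and 2 lower in SW, and 3 higher and 0 lower in IT. The oxygen-sensing cysteine oxidase genes PCO1 (0.798 to 2.25 FPKM over the 6 groups) and PCO2 (0.371 to 1.06) and the regulator gene LBD41 (0.944 to 4.10) had none of their highest values in cold SW plants. SAD6 had its highest value in SW warm, at 1.91 FPKM against 0.274 and 0.159 in cold SW, and was at 1.28, 0.146 and 1.07 in IT. The hemoglobin gene HB1 (12.3 FPKM) and the regulator gene HRE1 (6.74 FPKM) did have their highest value in SW after 1 week. Their values in IT after 2 weeks were close to it, at 11.3 and 6.07 FPKM. In SW at 1 week their log2 ratios of cold to warm were 0.48 and 0.93. HB1 was past 2-fold against warm in IT at 2 weeks alone (1.63).

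**Figure D4:**
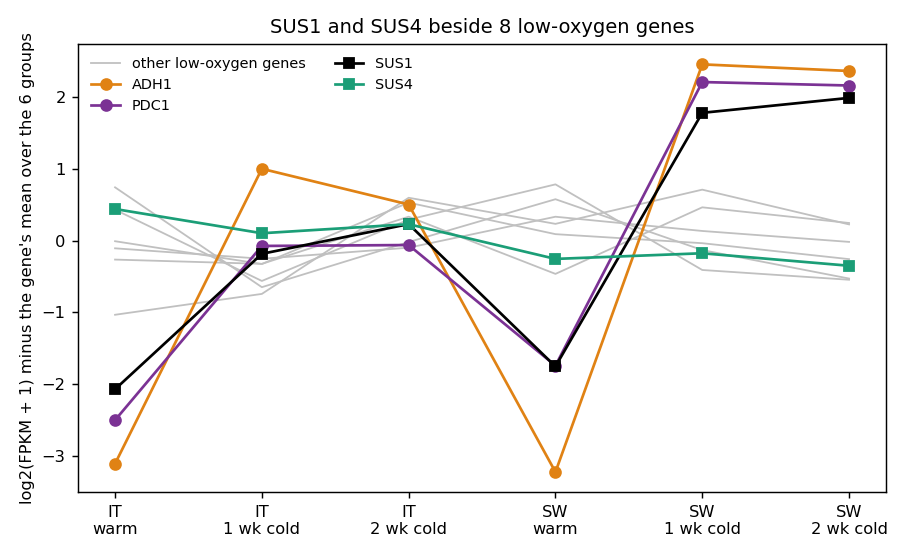
Log2(FPKM + 1) minus each gene's own mean over the 6 groups, for SUS1 and SUS4 (squares), ADH1 and PDC1 (circles) and the other 6 low-oxygen genes (grey lines). SUS1 runs close to PDC1, at a root mean square distance of 0.29 with 1 FPKM added to each value. PDC1 is at 0.377 FPKM in IT warm and 1.33 in SW warm, where the added 1 FPKM weighs heavily. The 2 cold SW points of SUS1 are, like those of ADH1 and PDC1, the highest of its profile.

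The profile of SUS1 was compared with those of 15258 genes above 0 in all 6 groups and of at least 5 FPKM in at least 1. The measure was the root mean square difference of mean-centred log2(FPKM + 1) values. The nearest was AT3G22142 (0.26), at 2.93, 16.4 and 15.2 FPKM in IT and 6.35, 61.7 and 68.2 in SW. PDC1 (0.29) and RAP2.9 (0.29), which encodes a transcription factor of the DREB family, followed. RAP2.9 was at 2.46, 6.06 and 12.6 FPKM in IT and at 2.23, 31.7 and 52.8 in SW. With 6 points per profile and 1 value per point, this likeness is a description of these groups alone. The distance to PDC1 depends on the added 1 FPKM, since PDC1 was at 0.377 FPKM in IT warm, and it was not computed without it.

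Other genes of sucrose metabolism were listed by role, starting with the phosphatases that follow sucrose phosphate synthase. All 4 sucrose phosphate phosphatase genes passed the filter. AT2G35840, the most abundant, was at 63.9, 101 and 105 FPKM in IT and at 81.2, 141 and 160 in SW, with log2 ratios of cold to warm of 0.65 to 0.97. AT3G52340 had ratios of -0.65 and -0.68 in IT, past 2-fold by reference genes, and of -0.31 and -0.04 in SW. The single cold-to-warm ratio of 2-fold in this list was that of AT1G51420 in SW after 1 week (1.28 FPKM against 0.101), a gene at or below 0.310 FPKM in the other groups, and it was below 2-fold by reference genes, by quantile normalization and with equal sums.

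Among the 7 genes that supply UDP-glucose and hexose phosphates, 1 was at least 2-fold higher in a comparison of cold with warm and none lower. That gene was F2KP, which encodes a kinase and phosphatase of a regulatory sugar phosphate in the cytosol, at 46.9, 97.2 and 88.1 FPKM in IT and 49.2, 95.7 and 98.3 in SW (log2 ratios 0.89 to 1.04). The cytosolic fructose bisphosphatase gene cyFBP, the most abundant, was at 258, 161 and 230.1 FPKM in IT and at 264, 223 and 347 in SW. F2KP was below 2-fold under all 4 other scalings, and cyFBP was 2-fold lower in IT at 1 week under reference-gene scaling and quantile normalization. UGP1, also of this list, was 2-fold lower in SW at 1 week under reference-gene scaling. The list medians lay between 0.41 and 0.54, and 3 of the 4 turned negative by reference genes (-0.15 in IT at 2 weeks, -0.28 and -0.30 in SW).

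The invertases split sucrose to glucose and fructose and are the alternative to sucrose synthase. Both vacuolar invertase genes were at least 2-fold lower in cold SW plants and within 2-fold in IT. VI2 (AT1G12240) was at 42.7, 26.8 and 26.6 FPKM in IT and at 61.9, 22.4 and 20.4 in SW, and VI1 (AT1G62660) at 10.9, 6.09 and 5.42 and at 14.9, 3.46 and 1.69. The SW response of VI1 was -1.84 at 1 week and -2.57 at 2 weeks, against -0.75 and -0.89 in IT. Without the added 1 FPKM the IT value of VI1 at 2 weeks was just past 2-fold lower than in the warm. Both genes stayed 2-fold lower in cold SW under all 4 other scalings, but by reference genes both were also 2-fold lower in IT (list medians -1.12 and -1.32), and with equal sums VI1 was. In SW the vacuolar invertase genes were thus lower in the cold where SUS1 was higher. Of 7 measured alkaline/neutral invertase genes, which act in the cytosol and organelles, A/N-InvD was 2-fold lower in SW (10.8 FPKM against 2.59 and 2.69). In IT A/N-InvD was at 9.95 FPKM in the warm and 4.76 and 6.38 in the cold (log2 ratios -0.93 and -0.57). It was past 2-fold there at 1 week by upper quartile, by reference genes and with equal sums, and at 2 weeks by reference genes. A/N-InvC, the highest by the mean over the 6 groups, stood at 62.2 FPKM in SW after 1 week against 23.1 to 40.7 in the other groups. The A/N-InvC ratio was past 2-fold under none of the other scalings. The remaining 5 were within 2-fold in all 4 comparisons, although by reference genes 5 of the 7 genes, A/N-InvC and A/N-InvD among them, were 2-fold lower in SW at 2 weeks.

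Genes named as cell wall invertases went in several directions, and which of their products split sucrose was not examined. Of 4 measured genes, cwINV6 was at least 2-fold lower in all 4 comparisons, from 11.3 FPKM to 2.05 and 4.10 in IT and from 12.0 to 2.96 and 2.66 in SW. The most abundant, cwINV1, was at 23.1, 33.2 and 59.6 FPKM in IT and at 11.6, 22.2 and 7.21 in SW. At 2 weeks its log2 ratio was 1.33 in IT, below 2-fold by reference genes, and -0.61 in SW. cwINV5 was at 0.882, 5.24 and 2.102 FPKM in IT and at 0.0628, 0.768 and 2.23 in SW.

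Hexokinases and fructokinases phosphorylate the sugars that sucrose cleavage yields. Of 7 measured genes the fructokinase gene AT5G51830 was at least 2-fold higher, from 21.9 FPKM in IT warm to 71.8 at 2 weeks and from 20.6 in SW warm to 71.3 at 1 week and 43.8 at 2 weeks, the last within 2-fold under all 4 other scalings. The other 6 were within 2-fold in the 4 comparisons, among them AT1G66430, the most abundant by the mean over the 6 groups, at 32.5, 42.3 and 41.2 FPKM in IT and 44.3, 49.9 and 80.03 in SW. AT3G59480 was at 2.71 FPKM in IT warm and 0.891 after 1 week, a log2 ratio of -0.97 that was past 2-fold by upper quartile, by reference genes and with equal sums. Among 5 sucrose transporter genes, the phloem loader gene SUC2 was at 74.4 to 113 FPKM over all groups and within 2-fold. SUC4 was 2-fold higher in SW at 1 week (5.55 against 1.84 FPKM), except by reference genes, and SUC5 2-fold lower in SW (1.43 against 0.159 and 0.117). In IT SUC5 was at 1.496 FPKM in the warm and 0.354 at both cold times, a log2 ratio of -0.88 with 1 FPKM added, and past 2-fold by reference genes and, at 1 week, with equal sums.

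**Figure D5:**
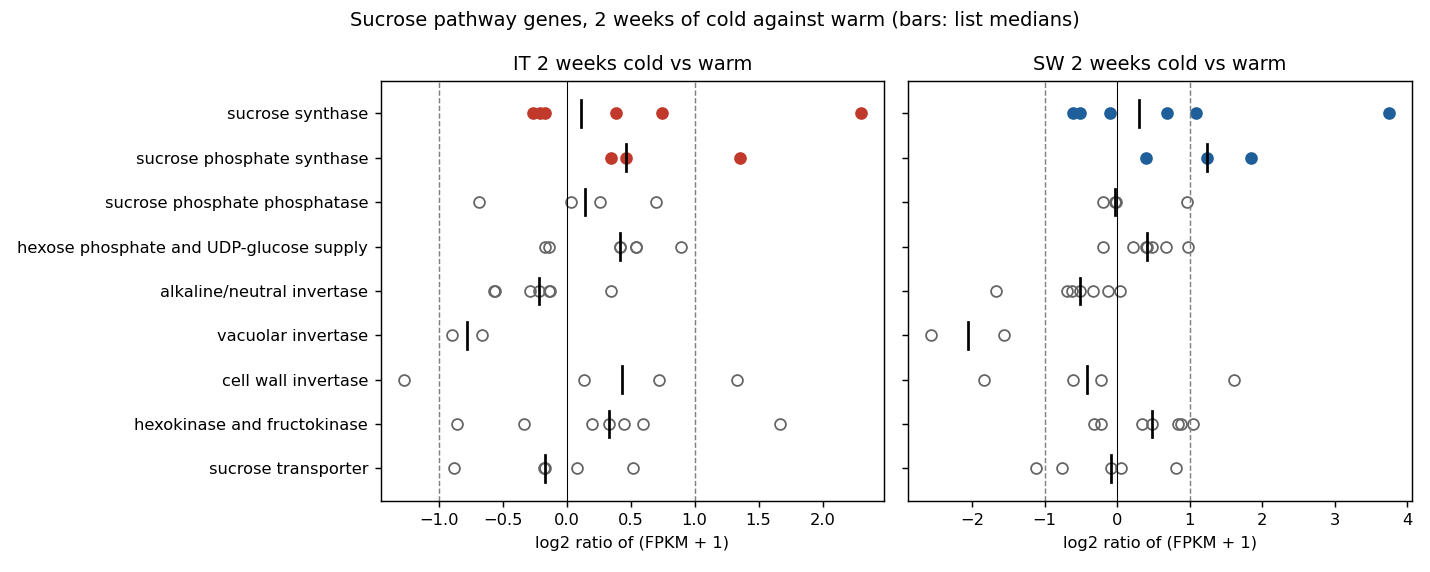
Log2 ratio of (FPKM + 1), 2 weeks of cold over warm, in IT (left) and SW (right) for the SUS and SPS genes (filled points) and 7 other lists of sucrose metabolism (open points), 1 point per measured gene; black bars are list medians and dashed lines 2-fold. SUS1 is the rightmost point of both panels at 2.30 and 3.74 on the log2 scale, and the vacuolar invertases in SW are both left of the lower line at -2.57 and -1.55.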

How the data were processed

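The deposited table gives FPKM values made by the authors, 1 per gene and group, for 6 groups of 3 libraries (18 in all). Per the submitters' processing notes, the tools were TopHat 1.4.1, Cufflinks 2.1.1 and Cuffdiff, and the build was TAIR10. Settings, read depth and how values were pooled were not given in the sources used here. Values were used as deposited on the log2(FPKM + 1) scale, with a filter of 1 FPKM in at least 1 group (19639 of 33557 genes); a gene at exactly 0 in a compared group got no ratio. FPKM sums per group ranged from 823963 to 1034038. No value per library was available to this work, so no test was run, and the written design uses ratios alone. Named genes were the 10 members, for each other list the most abundant member and up to 3 with the largest ratios of 2-fold or more, and the 3 nearest profiles; AT3G52340, AT3G59480 and the low-oxygen, phloem, leaf and root genes beyond these were chosen after their values were seen. The members and lists (14 lists, 88 loci) were chosen with earlier results of these data known. Gene models, sequences and coordinates came from the RefSeq annotation of TAIR10.1 (97.8% of table loci matched). Coding sequences were aligned with mafft 7.526; the rest ran in Python 3.11.15 with pandas 2.3.3. The calling step was run on copied values with planted ratios and no noise, where the outcome follows from the arithmetic. That run says nothing about error rates in the data. TAIR10 is the genome of another accession, Columbia, and the effect of sequence differences of the ecotypes on the values was not tested.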

Additional observations from a re-analysis of the deposited data

How the results depend on the processing

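The 11 counts of members and 99 member ratios were recomputed under 8 alternatives: 0.1 or 0.25 FPKM added in place of 1, no filter, a filter of 5 FPKM, upper-quartile scaling, reference-gene scaling (12 genes), quantile normalization and equal sums. Of 88 recomputed counts 80 were within 1.5 times of the reported count. By reference genes 1 member was past 2-fold in IT at 2 weeks of cold against warm, in place of 2, and with the 5 FPKM filter 2 in SW at 1 week, in place of 4, since only 4 members reach that level. With 0.1 FPKM added, 2 members differed between the ecotypes in the warm (SUS2 and SUS4) in place of 0. With 0.1 or with 0.25 FPKM added, 2 members (SUS1 and SUS2) differed after 2 weeks of cold in place of 1. The SW response exceeded that of IT by 1 or more at 1 week in 2 members (SUS1 and SUS3) in place of 1 with 0.1 or 0.25 FPKM added or with equal sums. Of 737 recomputed ratios 713 kept their side of the limit and moved by less than 0.5 where below it. A change of filter cannot alter a ratio, and 99 of the 713 came from no filter and 44 from the 5 FPKM filter. Of the other ratios 12 passed the limit, 6 dropped below it and 6 moved by 0.5 or more. No ratio of 2-fold changed sign. No paired analysis was possible because the table holds 1 combined value per group, and leaving out a replicate was not possible for the same reason. Precision is limited most for SUS2 to SUS6 and SPS3F, whose values were at or below 4.11 FPKM with unknown depth.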

Other observations

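Profiles like those of the other members were found by the same distance over the 6 groups. Nearest to SPS1F was RABC2b (0.11), a small GTPase gene, at 4.26, 4.07 and 6.19 FPKM in IT and 3.85, 8.61 and 12.8 in SW. Nearest to SPS2F was AT4G19410 (0.11), followed by G3Pp4, of the glycerol phosphate permease family (0.12), at 13.0, 32.9 and 27.1 FPKM in IT and 13.0, 52.3 and 55.2 in SW. Nearest to SPS4F was AT5G37010 (0.06), to SUS2 AT5G47540 (0.08) and UMAMIT21, of a family of amino acid transporters (0.09), and to SUS3 AT3G50910 (0.09) and the transcription factor gene RAV1 (0.09). None of these is another member of either family. However, SUS2 to SUS6 and SPS3F, at or below 4.11 FPKM, could not be named, since a candidate had to reach 5 FPKM. Among the members themselves the closest pair of profiles with a span of 1 or more on the log2 scale was SUS2 and SPS2F (0.30). Floral marker genes, at 0.440 to 1.20 FPKM summed over 5 genes in the other groups, summed to 7.22 FPKM in IT after 2 weeks of cold.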
